A study of Rattus norvegicus with 12 samples.

Results

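The nuclear genes for subunits of the mitochondrial respiratory chain were followed in liver RNA of rats that develop liver tumors. Members were chosen by gene symbol: those starting with Ndufa, Ndufb, Ndufc, Ndufs or Ndufv and a digit, Sdha to Sdhd, those starting with Uqcr, Cox4 to Cox8 symbols without Cox8b, and those starting with Atp5. Only probe sets annotated with a single gene were used, and each gene was represented by its brightest probe set on average. The rule gave 78 of the 14217 genes on the array, from 87 probe sets: 35 genes of complex I, 4 of complex II, 7 of complex III, 16 of complex IV and 16 of complex V. A further 7 probe sets that fit the rule were annotated with several genes and were left out; they stand for Atp5mc1, Cox7a2, Atp5mc2, Cox5a, Uqcrb, Ndufs5 and Ndufa10 together with near-copies. Cox6c-ps1 is a pseudogene by its name, and whether its probe set is separate from Cox6c was not tested.

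The respiratory chain sits in the inner mitochondrial membrane. Complex I takes electrons from NADH and complex II takes them from succinate, ubiquinone carries them to complex III, and cytochrome c carries them on to complex IV, which reduces oxygen. Complexes I, III and IV pump protons, and complex V, the ATP synthase, uses the proton gradient to make ATP. Some core subunits are encoded by mitochondrial DNA and none of those are among the 78 genes. Hepatocytes are rich in mitochondria.

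The study compared liver tumors with the liver beside them, with an unaffected strain and with younger rats. Long Evans Cinnamon (LEC/Crj) rats, a strain known for a defect of the copper transporter gene Atp7b and for hepatitis that ends in liver tumors, gave 4 arrays of tumor and 4 arrays of adjacent nontumor liver at 67 weeks of age. Each of these arrays held mixed RNA of 2 tumor and nontumor pairs drawn from 8 pairs. Long Evans Agouti (LEA) rats, the control strain, gave 1 array of liver at 67 weeks, and LEC liver at 4, 26 and 39 weeks gave 1 array each, again from pooled RNA, with the number of rats not stated in the sources used here. All rats were labelled male and kept free of specific pathogens. The labels do not say if pools share rats, so the p-values below measure only the spread between these arrays. In bulk tissue, fewer cells of a type and less RNA per cell cannot be told apart.

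Values are log2 signals, so a difference of 1 is a doubling. A gene was called where limma's moderated test gave a Benjamini-Hochberg adjusted p below 0.05 over 31042 probe sets. Array medians lay between 7.39 and 7.51. The female-specific transcript Xist read 11.36 to 13.12 on 10 arrays, against 5.27 and 5.67 on the arrays of LEC at 26 and 39 weeks, and the Y-linked gene Eif2s3y read 8.90 and 8.18 on those arrays and 3.65 to 3.81 on the others. These readings go against the male label on 10 arrays, among them all 8 tumor and nontumor arrays and the LEA array; the part of this in the comparisons with the 26-week and 39-week arrays was not tested. Of 23 hepatocyte markers, 18 were called lower and 0 higher in tumor, beside 29.2% lower and 38.8% higher among all genes. The median level of the list was 13.44 to 13.76 on the nontumor arrays and 12.28, 11.09, 12.99 and 8.34 on tumor arrays 1 to 4. Albumin (Alb) read 14.53 to 14.57 on the nontumor arrays and 12.78 to 14.59 on the tumor arrays. The highest value of any probe set was also 14.53 to 14.57 on the nontumor arrays and 14.59 on tumor array 3. Alb thus read at the top of the signal range there, and saturation was not tested. Of 12 bile duct and progenitor markers, 12 were called higher, with list medians of 7.69 to 9.24 in nontumor and 11.49 to 11.92 in tumor.

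Tumor liver had lower transcript levels of much of the respiratory chain than nontumor liver, with complexes I and II lowest relative to nontumor and complex V nearest to it. Of the 78 genes, 36 were called lower and 5 higher, and 37 were not called. Among all 14217 genes, 29.2% were called lower, 38.8% higher and 67.9% in either direction. The median difference (tumor minus nontumor) was -0.24 over the 78 genes and 0.07 over all genes. In 33 of the 78 genes every tumor array lay below every nontumor array, and in 5 every tumor array lay above; over all genes these shares were 27.7% and 36.1%. Rescaling the arrays by their medians or by quantiles moved the median of all genes to -0.04, a shift of -0.10, and the median of the 78 genes minus that of all genes was -0.30 as deposited, -0.30 with medians subtracted and -0.33 with quantiles. With quantiles 55 of the 78 genes were called lower and 5 higher, at a median of -0.37, and with medians subtracted 53 and 5, at a median of -0.34. Over all genes the calls also shifted, from 4147 lower and 5511 higher as deposited to 4825 and 4379 with quantiles and 5188 and 4843 with medians subtracted. The 5 rises were 4 genes of complex IV, Cox6a2, Cox7a2l, Cox6b2 and Cox4i2, and the ATP synthase inhibitor Atp5if1. The plot of differences by complex shows each gene with its error.

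**Figure D1:**
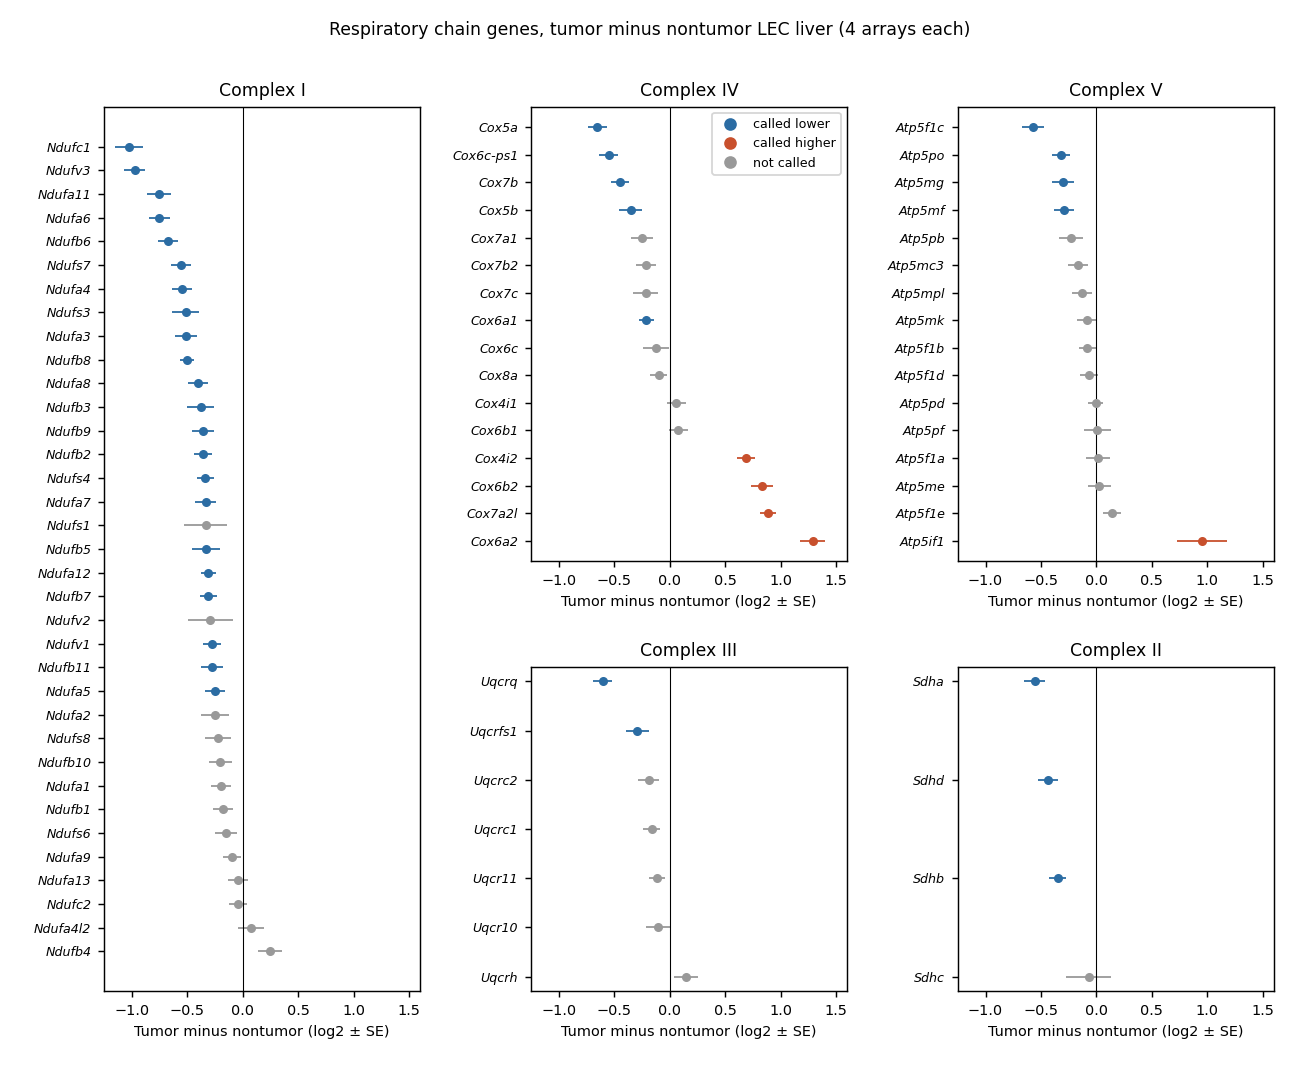
Difference between tumor and nontumor LEC liver (log2, x axis, ± SE of the limma fit, 4 arrays a group) for each of the 78 genes, by complex. Blue points were called lower (36), orange points higher (5) and grey points were not called (37); 22 of the 36 falls are in complex I, and 4 of the 5 rises are in complex IV.

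Complex I held most of the falls: 22 of its 35 genes were called lower and 0 higher, with a median difference of -0.33. Every tumor array lay below every nontumor array in 19 of the 35. The largest falls were in accessory subunits, which surround the catalytic core. Ndufc1, a small accessory subunit of the membrane arm, read 12.16, 12.51, 12.16 and 11.92 on the nontumor arrays and 11.12, 11.05, 11.36 and 11.10 on the tumor arrays. All tumor arrays were low and the groups did not overlap. The difference was -1.03 ± 0.13 (SE), a 2.04-fold lower level, with a limma adjusted p of 1.86e-04. Ndufv3, an accessory subunit of the NADH-oxidizing module, read 11.55, 11.59, 11.41 and 11.36 on the nontumor arrays and 10.67, 10.40, 10.60 and 10.36 on the tumor arrays. Tumor arrays were again all below nontumor arrays, by -0.97 ± 0.10 (SE) (limma adjusted p = 4.98e-05). A second, dimmer probe set of Ndufv3 differed by -0.66 ± 0.10 (SE) in the same direction (limma adjusted p = 4.57e-04).

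Ndufa6, an accessory subunit near the ubiquinone-binding region, read 11.97, 12.02, 11.74 and 11.71 on the nontumor arrays and 11.07, 11.02, 11.19 and 11.16 on the tumor arrays. All tumor values were low and lay close together, and the difference was -0.75 ± 0.09 (SE) (limma adjusted p = 1.71e-04). Ndufa11, a subunit of the membrane arm, differed by -0.75 ± 0.11 (SE) (limma adjusted p = 3.98e-04). Ndufb6, also of the membrane arm, differed by -0.67 ± 0.09 (SE) with tumor values of 10.68 to 10.81 against nontumor values of 11.28 to 11.62. Of the 27 accessory subunits, 18 were called lower and 0 higher, and their median difference was -0.33. Ndufb4 lay on the other side of 0 without a call, at 0.25 ± 0.11 (SE) (limma adjusted p = 0.0737).

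The 6 measured core subunits of complex I belong to the arm that passes electrons from NADH to ubiquinone over a flavin and iron-sulfur clusters, and 3 of the 6 were called lower. Ndufs7, which holds the last cluster of that chain, read 11.21, 11.26, 11.05 and 10.95 on the nontumor arrays and 10.63, 10.58, 10.44 and 10.60 on the tumor arrays. The groups did not overlap and the difference was -0.55 ± 0.09 (SE) (limma adjusted p = 7.74e-04). Ndufs3 differed by -0.51 ± 0.12 (SE) and the NADH-binding subunit Ndufv1 by -0.28 ± 0.08 (SE), both called (limma adjusted p = 0.00534 and 0.0143). The other 3 were not called, and in each of them nontumor array 4 stood below the rest of its group. Ndufs1 read 10.49, 10.94, 10.63 and 9.88 on the nontumor arrays and 10.22, 10.11, 10.16 and 10.12 on the tumor arrays, a difference of -0.33 ± 0.19 (SE) (limma adjusted p = 0.155). Ndufv2 read 12.02, 11.97, 11.70 and 11.02 on the nontumor arrays and 11.43, 11.38, 11.28 and 11.44 on the tumor arrays, a difference of -0.29 ± 0.20 (SE) (limma adjusted p = 0.227). Tumor values of both genes lay below the first 3 nontumor arrays and above the fourth. Ndufs8 followed the same order, with 10.11 on nontumor array 4 and 10.48 to 10.65 on the others, and a difference of -0.22 ± 0.12 (SE). Without nontumor array 4 all 3 genes were called lower.

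Ndufa4 carries a complex I name, and the counts of complex I include it, but it is now known as a subunit of complex IV. It read 12.45, 12.55, 12.40 and 12.36 on the nontumor arrays and 11.90, 11.73, 12.08 and 11.86 on the tumor arrays. All tumor arrays lay below all nontumor arrays, with a difference of -0.55 ± 0.09 (SE) (limma adjusted p = 8.23e-04). Its relative Ndufa4l2, known as a gene induced by low oxygen, differed by 0.08 ± 0.12 (SE) and was not called (limma adjusted p = 0.594); its sign turned when array medians were subtracted. Nontumor array 4 was high for Ndufa4l2, at 7.28 against 6.77 to 6.93 on the other nontumor arrays.

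Complex II, which is also the succinate dehydrogenase of the citric acid cycle, had 3 of 4 genes called lower and a median difference of -0.39. Sdha, the flavoprotein that oxidizes succinate, read 11.50, 11.63, 11.38 and 11.24 on the nontumor arrays and 10.95, 10.89, 10.90 and 10.78 on the tumor arrays. Tumor arrays lay below every nontumor array and below all 4 single-pool arrays. The difference was -0.56 ± 0.09 (SE) (limma adjusted p = 9.90e-04). The iron-sulfur subunit Sdhb differed by -0.35 ± 0.07 (SE) and the membrane anchor Sdhd by -0.44 ± 0.09 (SE) (limma adjusted p = 0.00309 and 0.00273), and a second probe set of Sdhd by -0.59 ± 0.09 (SE). The other membrane anchor, Sdhc, read 11.55, 11.59, 10.99 and 10.64 on the nontumor arrays and 11.03, 11.12, 11.19 and 11.15 on the tumor arrays. Here nontumor arrays 3 and 4 were low and the groups overlapped; the difference was -0.07 ± 0.20 (SE) (limma adjusted p = 0.767), and it turned positive without nontumor array 1 or without nontumor array 2.

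**Figure D2:**
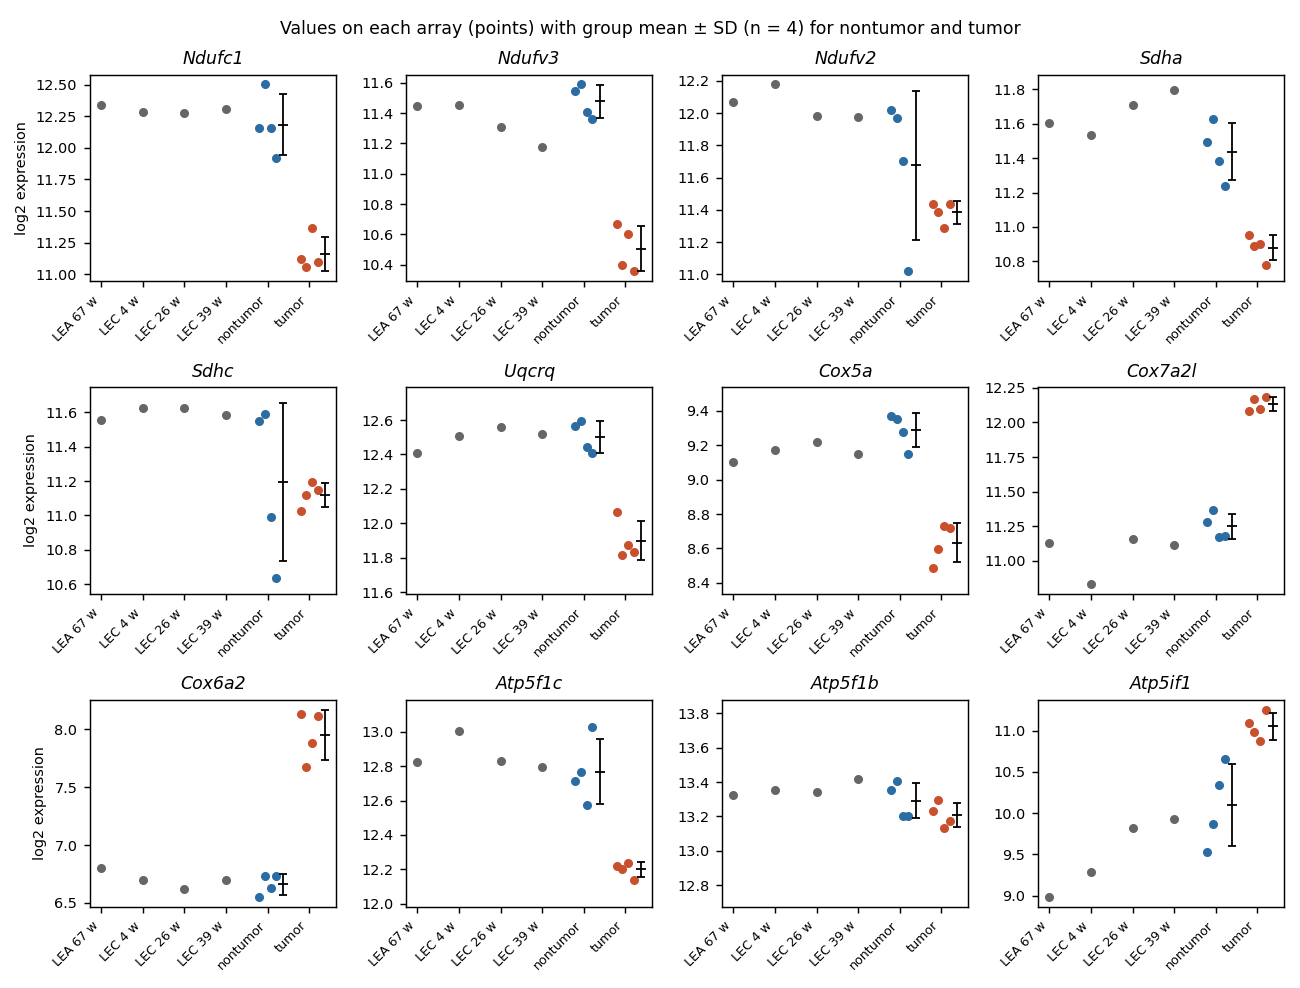
log2 expression (y axis) of 12 respiratory chain genes on each of the 12 arrays (points), by group on the x axis; black bars give the mean ± SD of the 4 nontumor and the 4 tumor arrays. Tumor points lie below all nontumor points for Ndufc1, Ndufv3, Sdha, Uqcrq, Cox5a and Atp5f1c and above them for Cox7a2l, Cox6a2 and Atp5if1, while 1 nontumor array for Ndufv2 and 2 for Sdhc lie below the tumor range and Atp5f1b overlaps.

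In complex III, which passes electrons from ubiquinol to cytochrome c, 2 of 7 genes were called lower and 0 higher, with a median difference of -0.16. As deposited, its share of 28.6% lower is near the 29.2% of all genes. In each rescaling Uqcr11, Uqcrc1 and Uqcrc2 were also called lower, beside 33.9% of all genes with quantiles and 36.5% with medians subtracted. How its falls stand beside all genes thus depends on the scaling. Uqcrq, a small subunit beside cytochrome b, read 12.56, 12.60, 12.44 and 12.41 on the nontumor arrays and 12.07, 11.82, 11.88 and 11.84 on the tumor arrays. Its groups did not overlap, and the difference was -0.60 ± 0.08 (SE) (limma adjusted p = 3.15e-04). Uqcrfs1, the Rieske iron-sulfur protein that takes electrons from ubiquinol, read 11.96, 11.93, 11.71 and 12.19 on the nontumor arrays and 11.69, 11.71, 11.62 and 11.63 on the tumor arrays. Nontumor array 4 was high, and the highest tumor arrays lay just below the lowest nontumor array, with a difference of -0.29 ± 0.10 (SE) (limma adjusted p = 0.0319). That call was lost when any of 7 of the 8 arrays was left out, with adjusted p up to 0.0699. The core proteins Uqcrc1 and Uqcrc2 differed by -0.16 ± 0.08 (SE) and -0.19 ± 0.09 (SE) and were not called (limma adjusted p = 0.0976 and 0.0968). Both were called lower in each rescaling, and a second probe set of Uqcrc2 was called lower as deposited, at -0.37 ± 0.13 (SE, limma adjusted p = 0.0330). Uqcrh, the hinge protein that binds cytochrome c1, lay at 0.15 ± 0.10 (SE) without a call.

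Complex IV, cytochrome c oxidase, had 5 of 16 genes called lower (31.2%) and 4 higher (25.0%), beside 29.2% and 38.8% of all genes. As deposited, neither count stands apart from all genes. With quantiles Cox6c, Cox7a1, Cox7c and Cox8a were also called lower, beside 33.9% of all genes. With medians subtracted Cox7a1, Cox7b2, Cox7c and Cox8a were added, beside 36.5%. How the falls of complex IV stand beside all genes thus depends on the scaling. Among 9 subunits that are common to most tissues, 4 were called lower and 0 higher, with a median of -0.21. Cox5a, a subunit on the matrix side, read 9.37, 9.35, 9.28 and 9.15 on the nontumor arrays and 8.49, 8.60, 8.73 and 8.72 on the tumor arrays. The tumor arrays were all low, with a difference of -0.65 ± 0.09 (SE) (limma adjusted p = 2.33e-04). A brighter probe set annotated with Cox5a and a near-copy differed by -0.18 ± 0.11 (SE) and was not called (limma adjusted p = 0.156); on it nontumor arrays 3 and 4 read near the tumor level. Cox7b differed by -0.45 ± 0.08 (SE), Cox5b by -0.35 ± 0.10 (SE) and Cox6a1 by -0.21 ± 0.06 (SE) (limma adjusted p = 0.00133, 0.0164 and 0.0202). The call of Cox6a1 was lost without tumor array 4. Cox4i1, the ubiquitous form of the largest nuclear-encoded subunit, differed by 0.06 ± 0.08 (SE), and Cox6b1 by 0.08 ± 0.09 (SE); neither was called, and both signs turned under each rescaling. The pseudogene Cox6c-ps1 was called lower, at -0.55 ± 0.08 (SE), while Cox6c differed by -0.12 ± 0.12 (SE) and was not called.

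The 4 rises in complex IV were in forms known from other tissues and in a supercomplex factor. Cox6a2, the form of subunit 6a known from heart and skeletal muscle, read 6.55, 6.73, 6.63 and 6.73 on the nontumor arrays and 8.14, 7.67, 7.88 and 8.12 on the tumor arrays. All 4 tumor arrays were high and far from the nontumor range, and the level was 2.45-fold higher, a difference of 1.29 ± 0.11 (SE) (limma adjusted p = 2.69e-05). Cox7a2l, which joins complexes III and IV into supercomplexes, read 11.28, 11.36, 11.18 and 11.18 on the nontumor arrays and 12.09, 12.17, 12.09 and 12.19 on the tumor arrays. Its tumor arrays lay close together and all above the nontumor arrays, with a difference of 0.88 ± 0.07 (SE) (limma adjusted p = 1.77e-05). Cox4i2, the form of subunit 4 known from lung, read between 5.81 and 6.16 on the nontumor arrays and between 6.63 and 6.70 on the tumor arrays, without overlap, a difference of 0.69 ± 0.08 (SE) (limma adjusted p = 1.63e-04). On 2 of the 4 nontumor arrays it did not exceed the highest of 27 probe sets for absent bacterial RNA, so its level there is near background.

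Cox6b2, the form of subunit 6b known from testis, read 5.69, 5.63, 5.68 and 5.83 on the nontumor arrays and 6.37, 6.47, 6.58 and 6.75 on the tumor arrays. The groups did not overlap, but all 4 nontumor arrays were within the range of the absent bacterial probe sets, so the rise is a bound: at least 1.50-fold higher in tumor, or at least 0.59 on the log2 scale (measured difference 0.83 ± 0.10 (SE), limma adjusted p = 1.09e-04). Cox7b2 did not exceed that range on any of the 12 arrays. Cox7a1, the muscle form of subunit 7a, differed by -0.25 ± 0.10 (SE) and was not called (limma adjusted p = 0.0562). Of 14 skeletal and heart muscle markers, 8 were called lower (57.1%) and 2 higher (14.3%), beside 29.2% and 38.8% of all genes. Their median difference was -0.31, with 12 of the 14 below 0. The 2 were skeletal actin Acta1, at 4.63 ± 0.20 (SE), and cardiac troponin Tnnt2, at 4.51 ± 0.14 (SE). Muscle creatine kinase Ckm read 6.53 to 6.66 on nontumor and 6.45 to 6.62 on tumor arrays. The median level of the list was 5.90 to 6.04 in nontumor and 6.31 to 6.47 in tumor, so the median level and the median difference have opposite signs. The highest absent bacterial probe set read 5.88 to 6.01 on the nontumor arrays and 5.52 to 5.67 on the tumor arrays. The list's nontumor median is therefore near background, and background itself read lower in tumor. The part of background in the lower calls of this list was not tested. The part of muscle markers in the Cox6a2 rise was not tested.

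Complex V was closest to the nontumor level, with 4 of 16 genes called lower, 1 called higher and a median difference of -0.08. As deposited, its share of 25.0% lower is under the 29.2% of all genes. With quantiles Atp5f1b, Atp5mc3, Atp5mpl and Atp5pb were also called lower, beside 33.9% of all genes. With medians subtracted Atp5mc3, Atp5mpl and Atp5pb were added, beside 36.5%. How its falls stand beside all genes thus depends on the scaling. In its catalytic head, the alpha and beta subunits were not called as deposited: Atp5f1a differed by 0.01 ± 0.11 (SE) and Atp5f1b by -0.08 ± 0.08 (SE) (limma adjusted p = 0.932 and 0.364). Atp5f1b read 13.35, 13.41, 13.20 and 13.21 on the nontumor arrays and 13.23, 13.30, 13.13 and 13.17 on the tumor arrays, and its groups overlapped. Atp5f1c, the gamma subunit that forms the rotating shaft, read 12.71, 12.76, 12.57 and 13.03 on the nontumor arrays and 12.22, 12.20, 12.24 and 12.14 on the tumor arrays. Every tumor array was lower, by -0.57 ± 0.10 (SE) on average (limma adjusted p = 0.00114). In the stalk and membrane part 3 of 10 genes were called lower: Atp5po at -0.32 ± 0.08 (SE), Atp5mg at -0.30 ± 0.10 (SE) and Atp5mf at -0.29 ± 0.09 (SE). The calls of Atp5mg and Atp5mf were lost without tumor array 1, and also without some other arrays; Atp5po kept its call in all 13 refits.

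Atp5if1 encodes the inhibitor protein that stops ATP synthase from running backwards and splitting ATP. On its brightest probe set it read 9.53, 9.87, 10.34 and 10.66 on the nontumor arrays and 11.09, 10.98, 10.88 and 11.26 on the tumor arrays. Nontumor values were widely spread, and the highest of them lay just below the lowest tumor value. The difference was 0.95 ± 0.22 (SE) (limma adjusted p = 0.00554). On this probe set LEA read 8.98, lower than every LEC array of any age. A second probe set differed by -0.17 ± 0.15 (SE) and was not called (limma adjusted p = 0.346). On that second probe set LEA read 7.24, with LEC at 4 weeks below it at 7.21 and the other LEC arrays above it. The third did not exceed the absent bacterial probe sets on 4 of 4 tumor arrays and 3 of 4 nontumor arrays, so no difference is read from it. The mean of the 3 probe sets, which includes the one at background, differed by 0.06 and was not called (limma adjusted p = 0.762). The rise therefore rests on the brightest probe set alone.

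**Figure D3:**
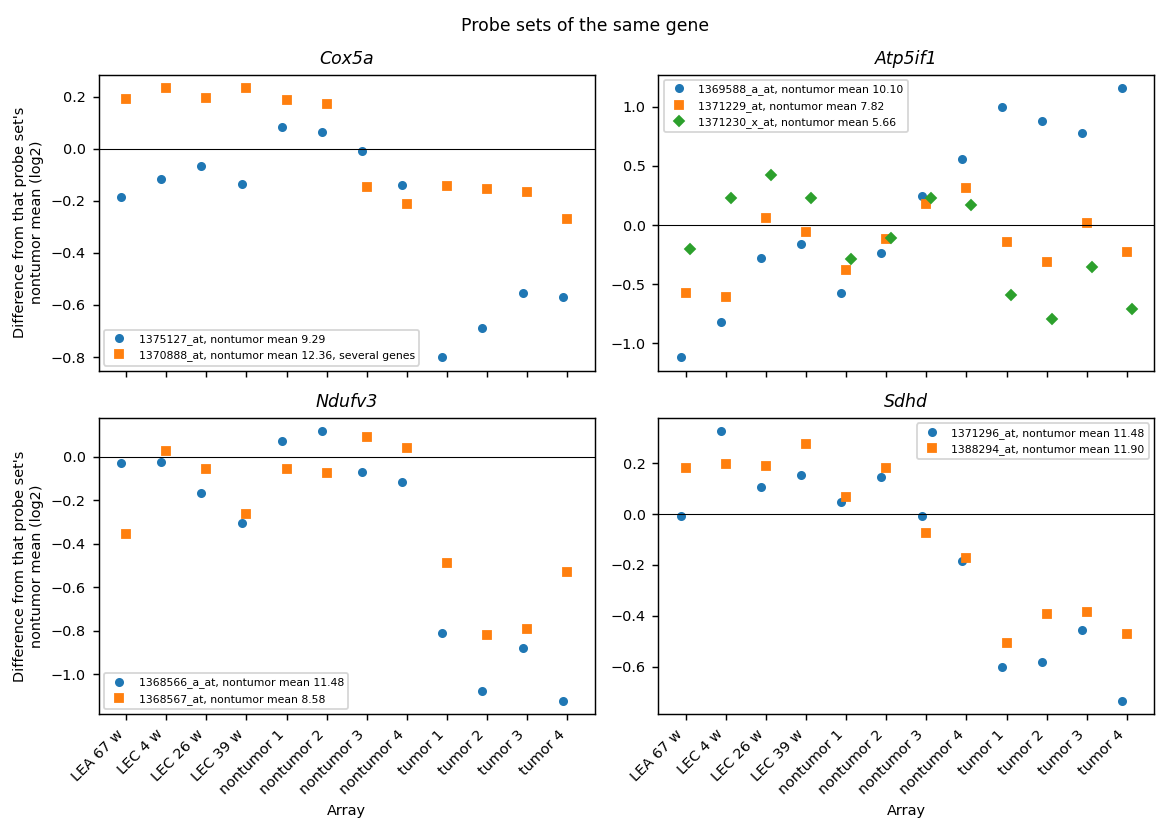
Difference of each array from a probe set's own nontumor mean (log2, y axis) over the 12 arrays (x axis) for the probe sets of Cox5a, Atp5if1, Ndufv3 and Sdhd; the legend gives each probe set and its nontumor mean. The probe sets of Ndufv3 and of Sdhd all fall in tumor, the 2 of Cox5a differ in size, and of the 3 of Atp5if1 the brightest lies higher in tumor, while the dimmest is at background on 11 of the 12 arrays.

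Promoters of the genes were set beside these results because nuclear respiratory genes are known for sites of the factors NRF1 and GABP, which drive many of them together. The 250 bases before the start were available for 70 of the 78 genes, from RefSeq on build GRCr8. They are shown for a strong fall with an NRF1 match, a strong fall with an ETS match (the site type GABP binds) and the largest rise, 5′ to 3′ on the gene's strand, with motif matches in capitals.
Ndufv3 promoter: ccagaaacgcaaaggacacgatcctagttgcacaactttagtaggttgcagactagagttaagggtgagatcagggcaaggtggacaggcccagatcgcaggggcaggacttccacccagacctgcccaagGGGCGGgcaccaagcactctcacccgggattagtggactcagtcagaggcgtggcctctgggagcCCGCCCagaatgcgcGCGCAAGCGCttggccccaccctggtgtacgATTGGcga
Ndufa6 promoter: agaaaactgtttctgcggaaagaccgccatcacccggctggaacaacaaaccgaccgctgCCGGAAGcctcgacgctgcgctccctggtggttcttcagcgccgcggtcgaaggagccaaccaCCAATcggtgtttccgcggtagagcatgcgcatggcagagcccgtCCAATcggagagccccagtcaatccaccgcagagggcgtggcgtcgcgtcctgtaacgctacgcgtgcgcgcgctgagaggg
Cox6a2 promoter: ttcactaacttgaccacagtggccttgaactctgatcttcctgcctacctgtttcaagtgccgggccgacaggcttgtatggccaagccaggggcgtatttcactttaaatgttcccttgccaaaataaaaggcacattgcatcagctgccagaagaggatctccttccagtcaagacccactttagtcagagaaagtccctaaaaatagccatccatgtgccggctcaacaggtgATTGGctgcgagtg
These lie at chr20:9613536-9613785 (plus strand), chr7:115750318-115750567 (minus strand) and chr1:192219717-192219966 (minus strand). Capitals in the Ndufv3 promoter mark the NRF1 motif (GCGCA, any base, GCGC), found 30 to 39 bases before the start, GGGCGG (SP1) at 2 places and CCAAT at 1. In the Ndufa6 promoter they mark CCGGAAG (ETS), 184 to 190 bases before the start, and CCAAT at 2 places. The Cox6a2 promoter held CCAAT alone, 10 to 14 bases before its start. Matches on either strand count, and matches of different motifs may overlap.

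NRF1 letters occurred in 10 of the 70 promoters (14.3%) against 3.75% of 33469 rat promoters of the same length. ETS letters occurred in 19 of 70 (27.1%) against 7.27%. The SP1 letters occurred in 35.7% against 30.5%, CCAAT in 34.3% against 34.0%, the YY1 letters AAGATGGC in 2.86% against 1.63% and the estrogen-related receptor letters TCAAGGTCA in 1.43% against 0.388%. Among genes called lower in tumor, 6 of 32 promoters held the NRF1 letters and 7 of 32 the ETS letters. Among genes not called the counts were 4 of 34 and 12 of 34, and among the 4 rises with a promoter they were 0 and 0. A match describes these letters only; it was not tested whether a factor binds there.

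Within each group the chain varied unevenly. The tumor arrays were close to each other: none of the 78 genes on any tumor array lay 0.4 or more from the mean of the other 3 tumor arrays. Nontumor array 4 lay that far below the other 3 nontumor arrays in 8 genes (Ndufa2, Ndufs1, Ndufs3, Ndufs8, Ndufv2, Sdhc, Cox6c and Atp5pf) and above them in 3 (Ndufa4l2, Ndufb3 and Atp5if1). It was below in 66 of the 78 genes, with a median of -0.19. Nontumor array 2 leaned the other way: it lay that far above the other 3 in 4 genes and below in 0, with 9 of the 78 genes below and a median of 0.18. Nontumor array 1 lay that far below in 1 gene and above in 2, and nontumor array 3 in 0. Without nontumor array 4, 46 of the 78 genes were called lower in tumor in place of 36, and 5 higher.

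The hepatocyte and bile duct marker lists changed far more between arrays than the respiratory chain did. Relative to the nontumor mean, the median over the 78 genes was between -0.27 and -0.20 on the 4 tumor arrays, and over complex I between -0.36 and -0.30. Over the same arrays the median of the hepatocyte list went from -0.64 on tumor array 3 to -5.12 on tumor array 4. The bile duct list lay between 2.85 and 3.33 on the tumor arrays. The plot of medians by array shows these values. What share of the falls goes with the mix of cells was not tested.

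**Figure D4:**
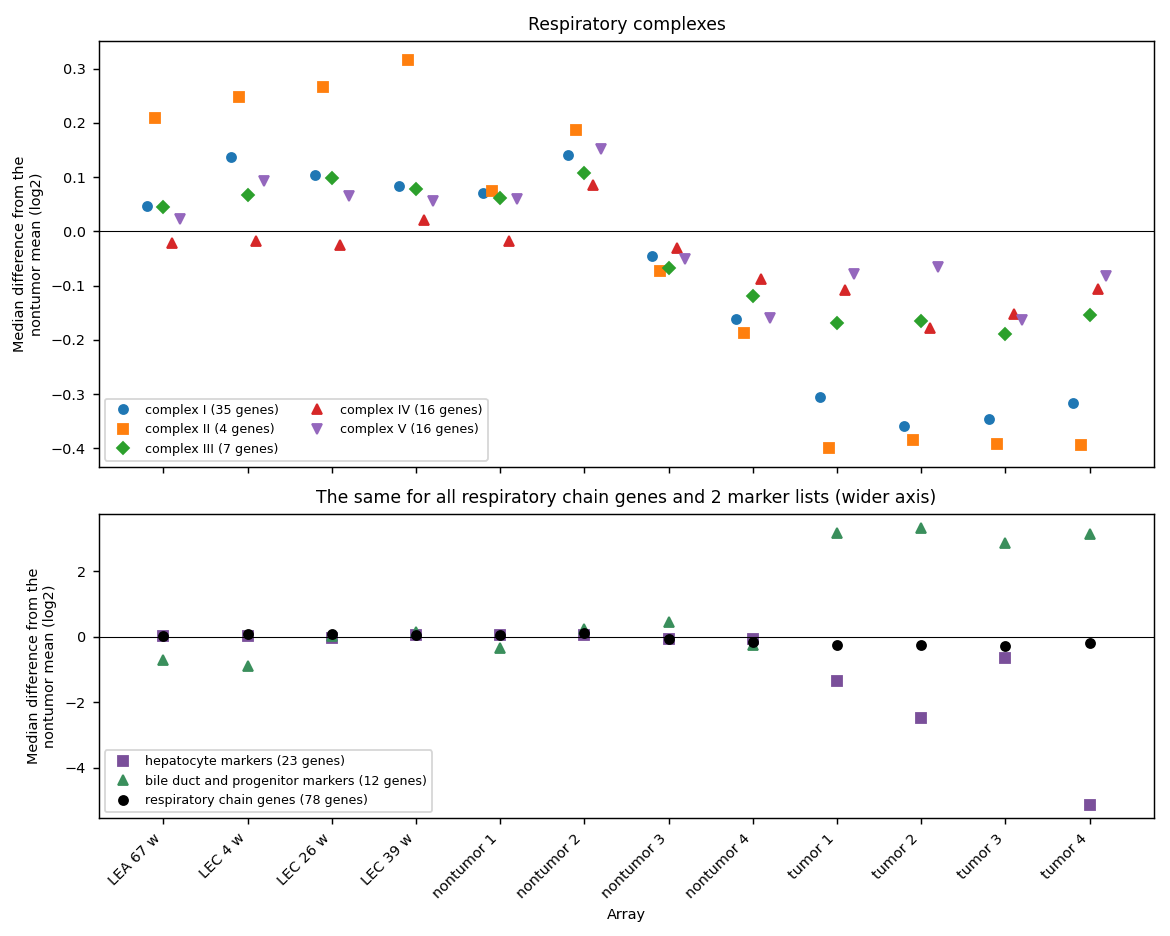
Median difference from the nontumor mean (log2, y axis) on each of the 12 arrays (x axis), for the 5 complexes (top) and for all 78 respiratory chain genes beside 23 hepatocyte and 12 bile duct and progenitor markers (bottom, wider axis). Complexes I and II lie at -0.30 or below on all 4 tumor arrays, and nontumor arrays 3 and 4 lie below arrays 1 and 2 in every complex.

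Nontumor liver of LEC rats was next set against LEA liver of the same age. In this comparison of 4 arrays with 1, limma called 0 of the 78 genes at the adjusted threshold, against 0.563% of all genes in either direction (0.331% lower and 0.232% higher), and 0 in each of 13 refits. In single genes the difference ran from -0.40 to 1.12. The median difference (nontumor minus LEA) was -0.04 and the SE of a gene lay between 0.10 and 0.35. In simulated data, described below, the fit for this comparison found 3 of 50 changes of 0.5 and 30 of 50 changes of 1. Differences as large as many of the tumor falls could thus be missed, and the lack of calls does not show that the groups were alike. The largest was Atp5if1, at 1.12 ± 0.35 (SE, limma adjusted p = 0.256). Ndufc1, Sdha, Cox5a and Atp5f1c, all lower in tumor, read 12.34, 11.61, 9.10 and 12.82 in LEA, each above all 4 tumor arrays. Cox6a2 read 6.80 and Cox7a2l 11.13 in LEA, each below all 4 tumor arrays.

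Nontumor liver at 67 weeks was also compared with the younger LEC pools. Limma called 0 of the 78 genes against LEC at 4, 26 or 39 weeks, beside 0.464%, 0.239% and 0.155% of all genes in either direction, and 0 in each of 13 refits. By direction, 0.232% of all genes were called lower and 0.232% higher against 4 weeks, 0.197% and 0.0422% against 26 weeks, and 0.141% and 0.0141% against 39 weeks. Differences of single genes ran from -0.71 to 0.82 against 4 weeks, -0.67 to 0.33 against 26 weeks and -0.48 to 0.31 against 39 weeks. These comparisons and the one with LEA share the 4 nontumor arrays. The median differences were -0.10, -0.08 and -0.07 in the order of the ages. All 4 complex II genes were below 0 in each of them and against LEA, with medians of -0.21 against LEA and -0.25, -0.27 and -0.32 against the 3 ages. The 6 core subunits of complex I had medians of -0.19 against LEA and -0.40, -0.25 and -0.26 against the ages. Sdhc and the core genes Ndufs1 and Ndufv2, in which nontumor array 4 was low, were among them.

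Across the single pools, complex II values had a narrow range. Sdha read 11.61 in LEA and 11.53, 11.71 and 11.79 in LEC at 4, 26 and 39 weeks. Sdhb read 12.21 in LEA and 12.27, 12.23 and 12.24 in LEC at 4, 26 and 39 weeks. The 4 pools lay close together for Sdhb and all above the 4 nontumor arrays. Cox7a2l read 11.13 in LEA and 10.83, 11.15 and 11.12 in LEC at 4, 26 and 39 weeks. Its lowest value of all 12 arrays was that of LEC at 4 weeks, and nontumor liver lay 0.42 ± 0.11 (SE) above it (limma adjusted p = 0.165). Cox7a1 was highest at 39 weeks, at 8.26, and nontumor liver lay -0.48 from it (limma adjusted p = 0.369). On its brightest probe set Atp5if1 read 8.98 in LEA and 9.28, 9.82 and 9.94 in LEC at 4, 26 and 39 weeks, and the nontumor arrays spread over 9.53 to 10.66.

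**Figure D5:**
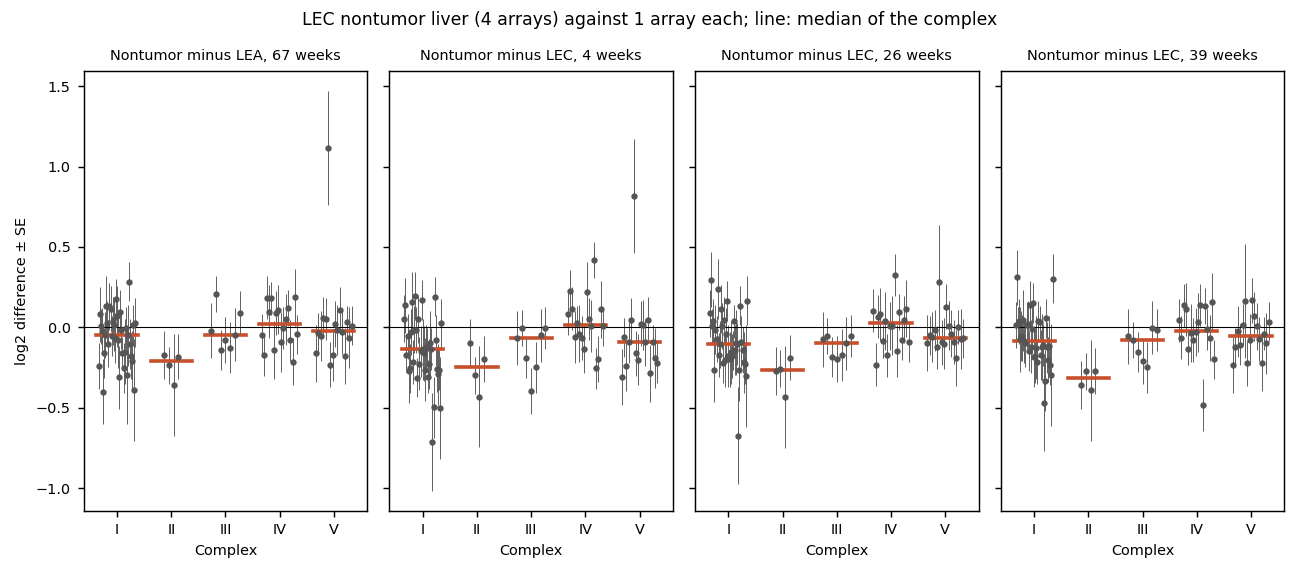
Nontumor LEC liver at 67 weeks (4 arrays) minus the single array of LEA at 67 weeks or of LEC at 4, 26 or 39 weeks (log2, y axis, ± SE of the limma fit), 1 point a gene, by complex (x axis); red lines give each complex's median. No gene was called, most points lie within 0.5 of 0, complex II lies below 0 in all 4 panels, and Atp5if1 stands above the rest against LEA and LEC at 4 weeks.

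Other mitochondrial genes were counted from fixed lists in tumor against nontumor. All genes were called lower in 29.2% and higher in 38.8%, and a list's share near these says nothing about the list. Genes that feed electrons into the chain beside complexes I and II, with ubiquinone synthesis and cytochrome c1, were called lower in 9 of 16 and higher in 2, with a median of -0.43. Etfdh, which passes electrons from fatty acid oxidation to ubiquinone, differed by -2.11 ± 0.16 (SE), and its partner Etfb by -1.46 ± 0.12 (SE). The ubiquinone synthesis genes Coq8a and Coq9 differed by -2.03 ± 0.27 (SE) and -1.36 ± 0.09 (SE). Cyc1, cytochrome c1 of complex III, differed by -0.35 ± 0.07 (SE) (limma adjusted p = 0.00326). Each of Etfdh, Etfb, Coq8a and Coq9 differed by more than the largest fall among the 78 subunit genes, that of Ndufc1.

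Assembly factors, which build the complexes and are not parts of them, were called lower in 24 of 43 and higher in 5, with a median of -0.30. The complex I factors Foxred1, Ecsit and Ndufaf1 differed by -1.29 ± 0.14 (SE), -1.24 ± 0.07 (SE) and -1.20 ± 0.10 (SE). Sdhaf1, an assembly factor of complex II, went the other way, at 1.42 ± 0.15 (SE), while the complex II subunits Sdha, Sdhb and Sdhd were lower. Proteins of the mitochondrial ribosome, which makes the subunits encoded by mitochondrial DNA, were called lower in 40 of 72 and higher in 6, with a median of -0.27. Mrps28 differed by -1.02 ± 0.13 (SE) and Mrps6 by 1.18 ± 0.12 (SE).

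The citric acid cycle and pyruvate dehydrogenase list, which supplies NADH and succinate, was called lower in 9 of 15 and higher in 5, with a median of -0.44. Citrate synthase Cs was higher in tumor, at 1.19 ± 0.09 (SE), and the isocitrate dehydrogenase Idh2 at 0.78 ± 0.18 (SE), while Dlst and Pdhb were lower, at -0.80 ± 0.08 (SE) and -0.80 ± 0.12 (SE). Among carriers, import and structural proteins, 6 of 19 were lower and 6 higher, with a median of -0.08. The ADP/ATP carrier Slc25a4 stood out at 2.35 ± 0.30 (SE), and the porin Vdac2 differed by 0.76 ± 0.07 (SE). The chaperonin Hspe1 differed by -0.77 ± 0.12 (SE). Of 6 uncoupling and related genes 2 were lower and 1 higher, and the higher one was Ucp2, at 2.00 ± 0.11 (SE).

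Of 23 regulators of mitochondrial gene expression 8 were called lower and 6 higher, shares of 34.8% and 26.1%, with a median of -0.15. The coactivator Ppargc1a differed by -0.62 ± 0.10 (SE) and the nuclear receptors Esrrg and Ppara by -1.70 ± 0.39 (SE) and -0.96 ± 0.14 (SE), all lower in tumor. Gabpa, the DNA-binding subunit of GABP, was higher, at 0.81 ± 0.14 (SE), and so was Tfam, which packs and transcribes mitochondrial DNA, at 0.37 ± 0.10 (SE). Nrf1 differed by -0.09 ± 0.08 (SE) and was not called (limma adjusted p = 0.336). Ppargc1a was also called lower in nontumor liver than in LEC liver at 4 weeks, at -1.01 ± 0.16 (SE, limma adjusted p = 0.0428). In the list of genes known to respond to low oxygen, 6 of 21 were lower and 10 higher in tumor, with a median of 0.32. Hexokinase Hk1, Ndrg1 and aldolase Aldoa were higher, at 2.53 ± 0.24 (SE), 1.78 ± 0.22 (SE) and 1.55 ± 0.10 (SE). Pdk1, which blocks pyruvate entry into the citric acid cycle, was lower, at -1.50 ± 0.20 (SE).

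Marker lists of other cell types were counted the same way, beside 29.2% lower and 38.8% higher among all genes. Of 17 matrix and stellate cell markers 0 were lower and 15 higher in tumor (median 2.53), and of 9 endothelial markers 3 were lower and 5 higher. Of 12 macrophage markers 2 were lower and 6 higher, of 13 lymphocyte markers 4 and 5, of 9 fat cell markers 5 and 2, and of 5 red blood cell markers 4 and 0. The lymphocyte shares, 30.8% lower and 38.5% higher, were near those of all genes and say nothing about that list. Their part in the respiratory chain differences was not tested.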

How the data were processed

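RNA of 12 rat liver samples was measured on Affymetrix rat arrays, with 3 µg of total RNA per array according to the labels' protocols. The authors deposited log2 expression values; the submitters' processing notes name RMA and R 2.6.1. RMA corrects background, quantile-normalizes arrays and combines probes, and the sources do not say if the 12 arrays were treated as 1 set. Of 31099 probe sets, 57 controls were left out and 31042 were tested with no filter on low values. The annotation gave 20826 of them 1 gene, 436 several and 9780 none listed here; symbols were brought up to date by Entrez identifier (20758 matched). The number of arrays limits the precision.

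Group means of the 6 groups were fitted with limma 3.58.1 under R 4.3.3 (functions lmFit and eBayes), which left 6 residual degrees of freedom beside 2.84 of the prior. Groups of 1 array add no spread and were taken to vary like the tumor and nontumor arrays. The Benjamini-Hochberg adjustment of the 2-sided p ran over 31042 probe sets, with a threshold of 0.05. Lists were described by counts and medians, without a test. The genes, the 17 gene lists (366 entries, 329 measured) and the promoter motifs were chosen with earlier results of these data known.

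The text names, for tumor against nontumor, the 4 largest falls and 3 largest rises called in each complex, fixed isoform, regulatory, complex II and core subunits, and up to 4 called members of each other list; other genes were named after their values were seen. The fit was tested on simulated data in which 200 of 31042 probe sets were changed and noise was independent between probe sets. In the deposited data 67.9% of genes were called in tumor against nontumor, so the rates below need not hold there. For tumor against nontumor the fit made 98 calls, 3 of them false. It found 0, 9, 38 and 48 of the 50 changed at 0.25, 0.5, 1 and 2 on the log2 scale. For nontumor against LEA it made 87 calls, 10 of them false, finding 1, 3, 30 and 43.

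Alternatives were renewed quantile normalization, array medians subtracted, dim probe sets removed, an eBayes prior with trend and robust fitting, weighted arrays, averaged probe sets of a gene, symbols before updating, a minimum difference of 0.5, a block for the title number, and omission of each tumor and nontumor array. Of these, 13 were refits of every gene: both rescalings, the prior, the weights, the block and 8 that omitted an array. Plots were made in Python 3.11.15 with matplotlib 3.10.9.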

Additional observations from a re-analysis of the deposited data

Results flagged for a closer look

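In 9 of 180 groups of 4 arrays, 1 array stood far from the other 3 for its group's range (Dixon's ratio above its 95% critical value), and chance flags about 1 in 20 groups. Among tumor arrays, Ndufa5 read 9.35 on array 4 with the next at 9.09, Ndufb4 read 11.88 on array 3 with the next at 12.03, and Uqcr11 read 11.55 on array 1 with the next at 11.61. Uqcrc1 read 11.86 on tumor array 4 with the next at 11.73, Cox7b2 read 5.03 on tumor array 4 with the next at 4.91, and Atp5mpl read 11.14 on tumor array 4 with the next at 11.02. Atp5pf read 11.70 on tumor array 2 with the next at 11.51, and the median level of complex V was 12.07 on tumor array 4 with the next at 11.96. Among nontumor arrays, Cox7b read 12.67 on array 2 with the next at 12.51.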

How the results depend on the processing

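Of the 36 genes called lower in tumor, 29 were called lower in all 13 refits; Ndufa5, Ndufb11, Ndufb5, Uqcrfs1, Cox6a1, Atp5mf and Atp5mg were not. All 5 rises were called in all 13, although Atp5if1 lost its call in the mean over its probe sets, of which 1 is at background. Quantile normalization again gave 55 genes lower and a median of -0.37, beside 4825 of 14217 genes lower in all, and subtracting array medians gave 53 lower beside 5188. A minimum difference of 0.5 left 15 lower, and removing dim probe sets left 2 higher, because that step takes Cox6a2, Cox6b2 and Cox4i2 out of the fit. Leaving out 1 array gave 30 to 46 genes lower, 5 to 6 higher and medians of -0.27 to -0.19. For the comparisons with single pools, 0 genes were called in any of the 13 refits; without dim probe sets, with means over probe sets and with the minimum difference the count was also 0. The median against LEA turned to 0.07 under quantile normalization. Whether title numbers mark pairs of tumor and nontumor arrays cannot be told from the values. Same-numbered arrays had correlations of deviations of 0.05, 0.14, -0.08 and 0.14, and differently numbered arrays between -0.14 and 0.11. With the number as a replicate block 32 genes were called lower, all among the 36, and 5 higher. With 1 array in a pool, whether a difference comes from the strain, the age or that pool cannot be told apart.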
